A study of Oryza sativa with 4 samples.

Results

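The measurement described here is how far the chilling responses of the rice cultivars Nipponbare and 93-11 differed, gene by gene. A response is the log2 ratio of the chilled to the untreated library of 1 cultivar, taken on RPKM with 1 added, and the response difference is the response of 93-11 minus that of Nipponbare. A positive value means that chilled over untreated was higher in 93-11, and a negative value that it was lower. Genes were kept where at least 2 of the 4 libraries reached 1 RPKM, which left 19466 of 55985 genes in the files. Of the 36941 genes above 0 in any library, 17475 were left out by this filter.

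RNA was sequenced from the shoots (aerial parts) of rice seedlings at the age of 15 days, with 1 pool of plants and 1 library for each combination of cultivar and treatment. Nipponbare belongs to the japonica subspecies of Oryza sativa and 93-11 to the indica subspecies. Both cultivars grew in soil under flooded conditions in a greenhouse held at 28 °C in daytime and 25 °C at night. Chilled plants then spent 33 h at 4 °C (± 1), and untreated plants of each cultivar served as the comparison; the labels give neither the hour of harvest nor the number of plants per pool.

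With 1 library per group, no spread between replicates can be measured, and 0 residual degrees of freedom are left for the interaction of cultivar and chilling. No test of a response difference was therefore possible, and a gene was called by size only, at 1 log2 unit (2-fold) or more in either direction. The only error that can be given is that of counting. Whole reads were recovered from the RPKM values, and the difference of the 2 log2 read ratios is given with a 95% Wald counting interval, which leaves out all variation between plants and preparations. In bulk shoots, fewer cells of a type and less RNA per cell cannot be told apart.

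Plants that meet low temperature raise DREB1 (CBF) transcription factors, which bind a short promoter element of many protective genes, among them dehydrins and other LEA (late embryogenesis abundant) proteins. Abscisic acid (ABA), a hormone of water shortage and cold, acts by releasing SnRK2 kinases from clade A protein phosphatases, after which the kinases activate bZIP factors. Rice is a chilling-sensitive cereal of warm climates, and japonica cultivars as a group stand low temperature better than indica cultivars as seedlings.

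Library totals lay between 12671333 reads (untreated Nipponbare) and 16682882 (untreated 93-11), with 13482486 in chilled Nipponbare and 13012799 in chilled 93-11, so that 1 read on a gene of 1 kb was worth between 0.0599 and 0.0789 RPKM. The labelled tissue was checked on marker genes. Leaf genes were abundant: the summed level of 5 Rubisco and light-harvesting genes was 32403 RPKM untreated and 5502 chilled in Nipponbare, and 38620 and 3823 in 93-11. No library held more than 2 reads of the meristem genes OSH1 or OSH15. Of 3 root genes, the silicon exporter gene LSI2 was at 0 except for 3 reads in untreated 93-11, and their summed level was 6.87 RPKM untreated and 1.43 chilled in Nipponbare, and 8.78 and 5.76 in 93-11.

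Over all 19466 genes the median response difference was 0.09 log2 units with an SD of 0.73 across genes, and 90% of genes lay between -0.97 and 1.31. A difference of at least 1 was found for 1833 genes (9.42%) and one of at most -1 for 914 genes (4.70%), so 66.7% of the calls were in the direction of 93-11. That split depended on how libraries were scaled to each other. It was 63.2% with trimmed mean of M-values (TMM) factors, with 1711 genes (8.79%) higher and 996 (5.12%) lower, and 54.6% (1442 against 1201 genes) with median-of-ratios factors, which moved the median of all genes by -0.13. Where the counting interval also had to lie on the same side of 0, 1525 genes (7.83%) and 716 genes (3.68%) were left. With the whole interval beyond 1 log2 unit the counts were 856 (4.40%) and 406 (2.09%). The size limit fell in a dense stretch of values, with 338 genes between 1 and 1.1 and 366 between 0.9 and 1, and with 160 and 209 at the lower limit.

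**Figure D1:**
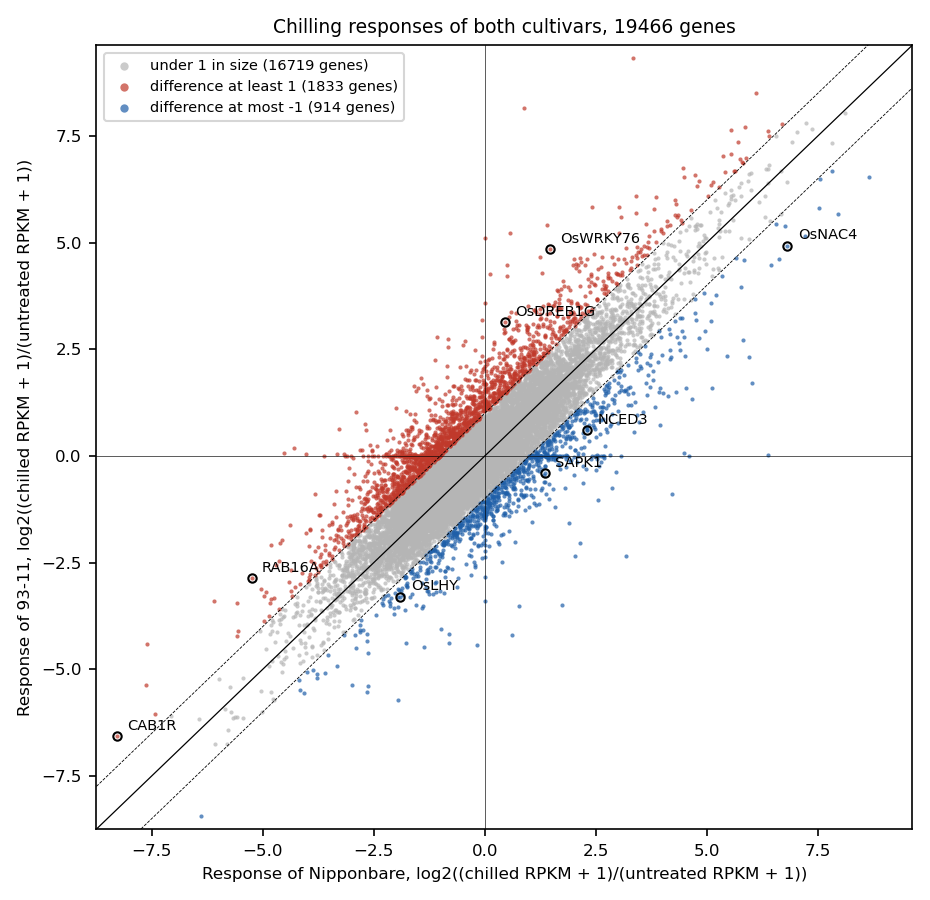
Response to chilling in Nipponbare (horizontal axis) and in 93-11 (vertical axis), both as log2((chilled RPKM + 1)/(untreated RPKM + 1)), for 19466 genes with 1 point each. The solid line marks equal responses and the dashed lines a difference of 1, red points are the 1833 genes with a difference of at least 1, blue points the 914 genes with at most -1, and OsNAC4 lies among genes with a strong positive response in both cultivars.

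A called difference could come from either cultivar. In Nipponbare 3256 genes (16.7%) had a response of at least 1 and 5449 (28.0%) one of at most -1, and in 93-11 these were 3542 (18.2%) and 4711 (24.2%). Among the 1833 genes higher in 93-11, 270 had a response of at least 1 in 93-11 with one under 0.5 in size in Nipponbare, and 296 responded positively in both, further in 93-11. On the negative side of the same group, 446 genes were lowered by at least 1 in Nipponbare and stayed under 0.5 in size in 93-11, and 206 were lowered in both, further in Nipponbare. Only 18 passed 1 in opposite directions, and the other 597 met none of these limits. The 914 genes lower in 93-11 split in a like way, with 182 raised in Nipponbare alone, 141 raised in both and further in Nipponbare, 170 lowered in 93-11 alone, 120 lowered in both and further in 93-11, and 12 in opposite directions.

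The same calls were read from the pairs of libraries at 1 temperature. Of the 1833 genes higher in 93-11, 577 (31.5%) differed by at least 1 in the chilled pair and under 0.5 in the untreated pair. In this sense 192 differed only in the untreated pair. Another 285 differed by at least 1 in both, and 779 (42.5%) fell in none of these classes. For the 914 genes lower in 93-11 these counts were 315, 65, 184 and 350. Over all genes, 2278 (11.7%) differed by 1 or more between the untreated libraries and 3397 (17.5%) between the chilled ones.

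**Figure D2:**
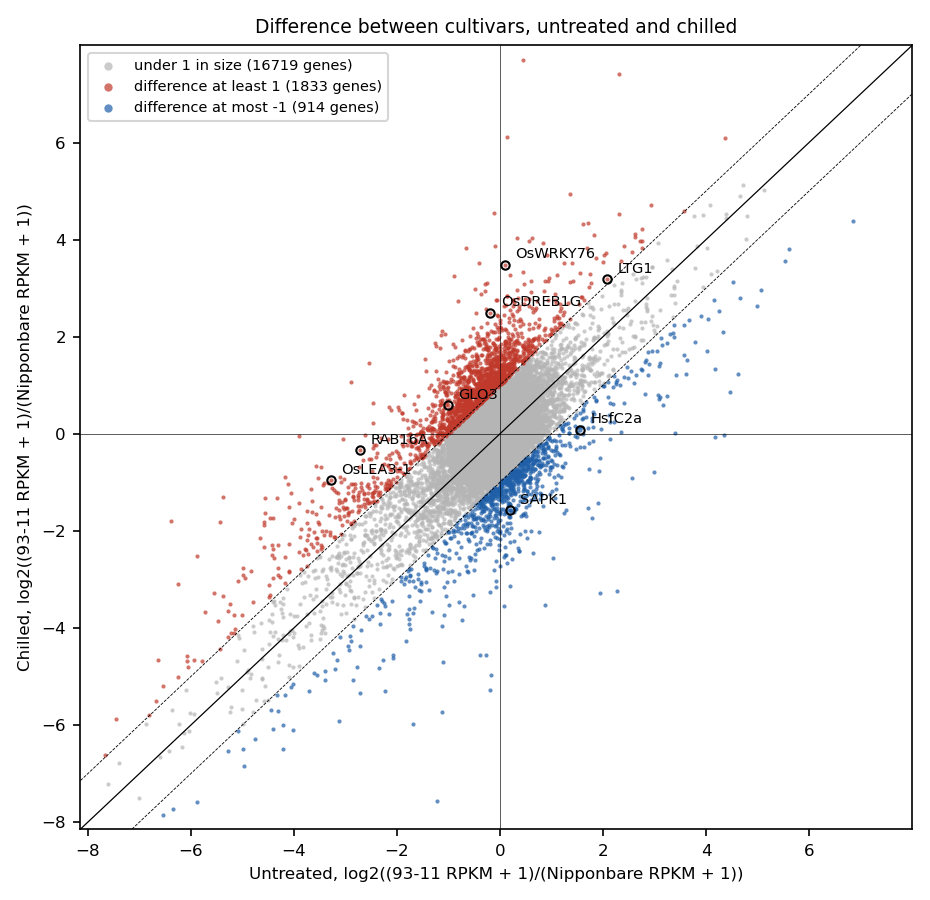
Difference between cultivars in the untreated pair (horizontal axis) and in the chilled pair (vertical axis), as log2((93-11 RPKM + 1)/(Nipponbare RPKM + 1)), 1 point per gene. A gene's vertical distance from the solid diagonal is its response difference; OsWRKY76 and OsDREB1G lie above 0 in the chilled pair, whereas RAB16A and OsLEA3-1 lie far below 0 in the untreated pair.

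Called genes were shorter than the rest, with a median length of 1426 bases for those higher in 93-11, 1343.5 for those lower and 1671 for the 16719 genes not called. Calls were also more frequent among weakly expressed genes in 1 direction. Of genes with a mean under 3 RPKM, 10.2% were higher in 93-11 and 3.61% lower, against 7.60% and 5.70% of genes at 100 RPKM and over, whose median difference was -0.08. Counting error was wide at the low end: the median width of the counting interval was 2.65 log2 units under 3 RPKM and 0.23 at 100 RPKM and over. For 308 of the 1833 and 198 of the 914 called genes the counting interval held 0.

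Genes low or at 0 in 1 cultivar entered the calls as well. Of the 1833 genes higher in 93-11, 197 (10.7%) were under 1 RPKM in both 93-11 libraries, against 4.79% of all genes, and 89 of them were at 0 there. In the genes at 0 the difference is the response of Nipponbare alone with its sign turned. Genes under 1 RPKM in both libraries of a cultivar passed the filter only through the other cultivar. Their higher share of calls was thus partly built in. Of the 914 genes lower in 93-11, 93 (10.2%) were under 1 RPKM in both 93-11 libraries and 43 at 0. In Nipponbare, 40 (2.18%) of the higher and 47 (5.14%) of the lower genes were under 1 RPKM in both libraries, against 1.78% of all genes. Which genome the 93-11 reads were mapped to is not given in the sources used, and absence of the transcript and loss of reads at sequence differences cannot be told apart.

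Calls were spread over all 12 chromosomes. The share higher in 93-11 ran from 8.24% on chromosome 8 to 12.1% on chromosome 10 and 12.2% on chromosome 11, and the share lower from 3.53% on chromosome 6 to 6.41% on chromosome 11. The next measured gene along the chromosome was called the same way for 14.8% of genes higher in 93-11, where 9.42% of all genes followed by another were called, and for 9.45% of genes lower in 93-11, where 4.68% were. The longest runs of neighbours called alike held 5 genes (higher) and 4 genes (lower).

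The highest and lowest differences over all genes belonged to identifiers without a checked name. LOC_Os02g08330 had 0.18 RPKM untreated and 1.19 chilled in Nipponbare and 0.60 and 454 in 93-11 (5, 35, 22 and 12895 reads), a difference of 7.26. LOC_Os04g12960 had 0.24 and 11.5 RPKM in Nipponbare and 0.36 and 864 in 93-11, a difference of 5.98. At the other end, LOC_Os01g51670 had 1.47 and 202 RPKM in Nipponbare with 1 read in each 93-11 library (-6.34). LOC_Os01g64120 had 1.00 and 17.0 RPKM in Nipponbare and 8.59 and 0.89 in 93-11, so that the cultivars moved in opposite directions (-5.51).

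Gene names were used for 243 of 387 listed loci, those whose symbol a reference table puts at the matching place in the gene order. Of these, 215 passed the filter, 30 (14%) with a difference of at least 1 and 19 (8.84%) with at most -1, with a median of 0.03. The lists were picked for known roles in cold, light and hormone biology, so these shares describe the lists and not the genome. Their members are described by role below, each list beside the background of 9.42% higher, 4.70% lower and a median of 0.09.

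**Figure D3:**
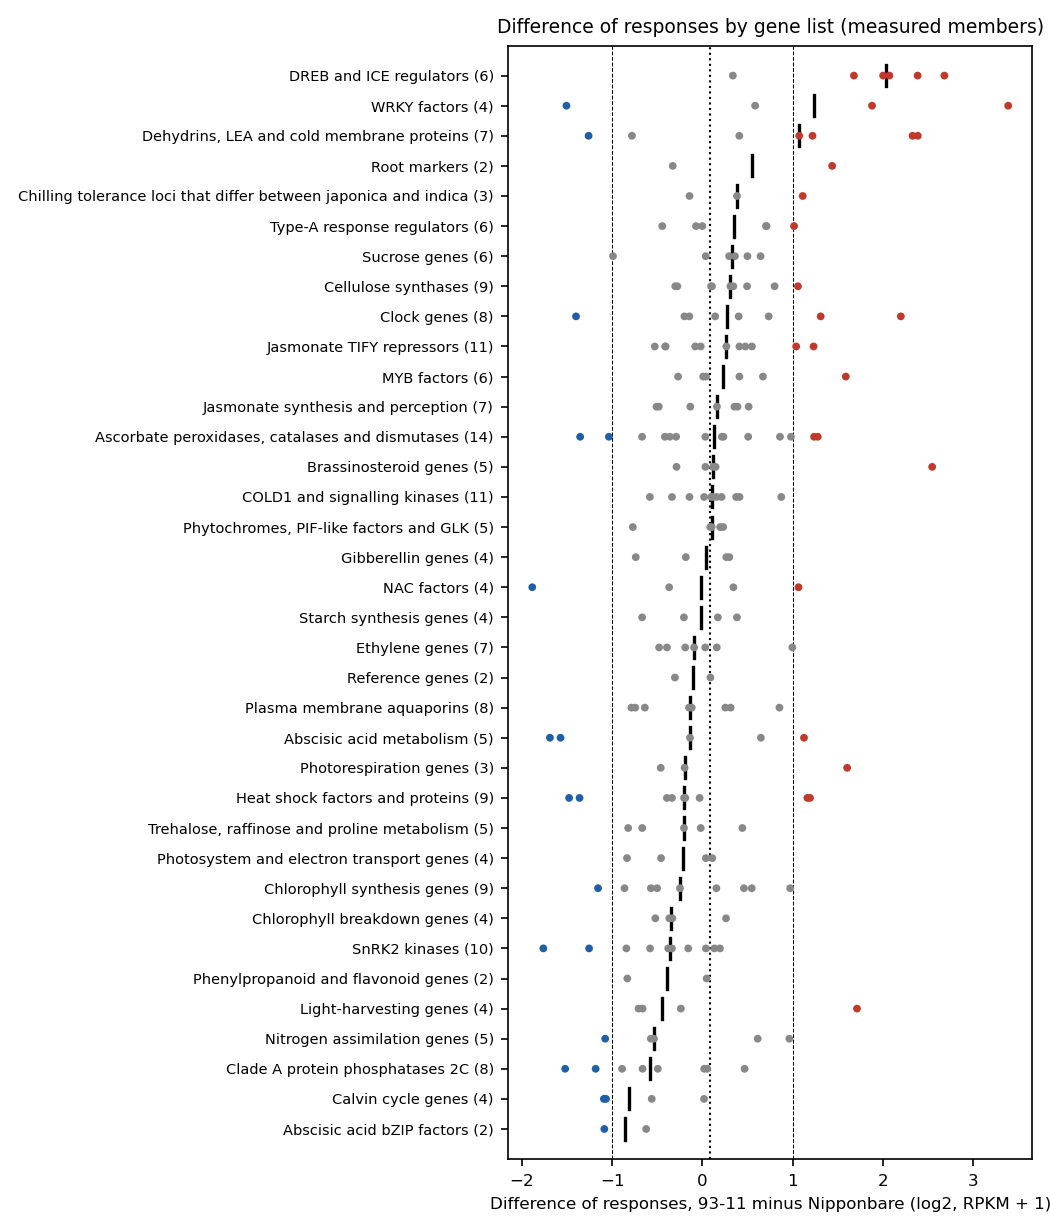
Response difference (93-11 minus Nipponbare, log2 of RPKM + 1) of the measured members of 36 gene lists, 1 point per gene, with the number of members in brackets. Short black bars are list medians, the dotted line is the median of all 19466 genes (0.09) and the dashed lines mark 1 and -1; of the lists drawn, the DREB list has the highest median (2.04) and the ABA bZIP list the lowest (-0.85).

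The DREB transcription factors had the highest median among lists with 2 or more measured members, 2.04, and 5 of the 6 measured genes had a difference of at least 1. The median was 1.39 with a pseudocount of 5 and 1.17 where 1 RPKM was required in all 4 libraries, which left OsDREB2A and OsDREB2B. OsDREB1A (LOC_Os09g35030) had 1.07 RPKM untreated and 9.84 chilled in Nipponbare, and 0.911 and 31.1 in 93-11. OsDREB1B (LOC_Os09g35010), its near neighbour on the chromosome, had 0.563 and 5.97 RPKM in Nipponbare and 0.855 and 42.2 in 93-11. All 4 untreated values were low, and the chilled 93-11 library stood highest for both genes. Their response differences were 1.68 and 2.38, with counting intervals on reads of 0.9 to 2.88 and 0.94 to 3.58. These genes lie in 1 cluster with their relative OsDREB1H. Their sequences were not compared and reads may be shared, so each is uncertain as a single gene.

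OsDREB1C (LOC_Os06g03670) had 1.33 RPKM untreated and 3.49 chilled in Nipponbare and 0.319 and 9.68 in 93-11, and OsDREB1G (LOC_Os02g45450) had 0.620 and 1.22 in Nipponbare and 0.424 and 11.5 in 93-11. Both genes were thus 3.49 RPKM or less in 3 of the libraries and near 10 in the chilled 93-11 library. The differences were 2.07 and 2.68 on the RPKM + 1 scale and larger on reads, 3.45 (2.09 to 4.8) and 3.75 (2.33 to 5.17), since the added 1 shrinks ratios of low genes. With a pseudocount of 5 they were 1.04 and 1.46. OsDREB2B (LOC_Os05g27930), of the DREB2 branch linked to drought and heat, was far more abundant, at 29 and 41.2 RPKM in Nipponbare and 34.6 and 199.9 in 93-11. Its difference was 2.0, with the narrowest interval of the 5 called genes (1.85 to 2.19 on reads). OsDREB2A, of the same branch, had the lowest value of the list, 0.34, with 15.9 RPKM in chilled Nipponbare and 16.3 in chilled 93-11. The other 4 listed DREB1 genes of checked name were under the filter; OsDREB1F had 0 reads in every library.

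WRKY transcription factors, which act in defence and stress, went both ways, with 2 of 4 measured genes higher and 1 lower. Their median of 1.23 was 0.58 on reads and where 1 RPKM was required in all 4 libraries. With loci of unchecked name added, 6 of 12 genes were higher and 1 lower, with a median of 0.81. OsWRKY76 (LOC_Os09g25060), reported in rice as a repressor in blast defence and as a factor in cold tolerance, had the highest difference of all named genes, 3.39 (2.91 to 4.12 on reads). It stood at 1.99 RPKM untreated and 7.23 chilled in Nipponbare and at 2.20 and 91 in 93-11, so the untreated libraries were alike and the chilled ones far apart. OsWRKY62, its neighbour on the chromosome, had 0.113 and 2.07 RPKM in Nipponbare and 0.729 and 16.6 in 93-11. Its difference of 1.88 rested on 2 reads in untreated Nipponbare and its counting interval ran from -1.4 to 2.54. OsWRKY24 (LOC_Os01g61080) went the other way: 1.1 and 69.98 RPKM in Nipponbare against 2.97 and 46.3 in 93-11, a difference of -1.51 that was -0.93 with a pseudocount of 5. OsWRKY71 had 333 RPKM in chilled Nipponbare and 501 in chilled 93-11, with a difference of 0.58.

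NAC factors, many of which respond to stress, had a median of -0.01, which took either sign over the scalings, with 1 of 4 measured genes higher and 1 lower. OsNAC4 (LOC_Os01g60020), described in rice as an inducer of hypersensitive cell death, had the lowest difference among named genes, -1.88 (-2.9 to -1.17 on reads). Its levels were 0.984 RPKM untreated and 222 chilled in Nipponbare and 1.23 and 66.8 in 93-11: both cultivars responded positively, Nipponbare further. OsNAC3 (LOC_Os07g12340) stood at 2.22 and 157 RPKM in Nipponbare and 5.39 and 656 in 93-11, with a difference of 1.07 that was 0.98 under another scaling and 0.80 on reads. The stress genes OsNAC5 (0.34) and OsNAC6 (-0.37) lay between them.

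Among 6 MYB factors, OsMYB2 (LOC_Os03g20090), a stress-tolerance factor, was the 1 called gene. It had 2.96 and 6.96 RPKM in Nipponbare and 1.94 and 16.8 in 93-11, untreated and chilled in turn, with a difference of 1.59 (0.88 to 2.85 on reads). OsMYBS3, reported in rice to repress the DREB1 pathway in cold, had nearly equal responses (2.21 in Nipponbare and 2.25 in 93-11), and OsMYB3R-2 had the lowest difference of the list at -0.27. Of 11 measured signalling genes, which hold the chilling sensor gene COLD1 and calcium-dependent and mitogen-activated protein kinases, 0 were called in either direction. COLD1 had 14.7 and 17.3 RPKM in Nipponbare and 12.5 and 13.3 in 93-11. The kinase gene CPK13 reached 634 RPKM in chilled Nipponbare and 694 in chilled 93-11, from 29.8 and 32.3. The ends of that list were CIPK12 (0.87) and MAPK5 (-0.58).

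**Figure D4:**
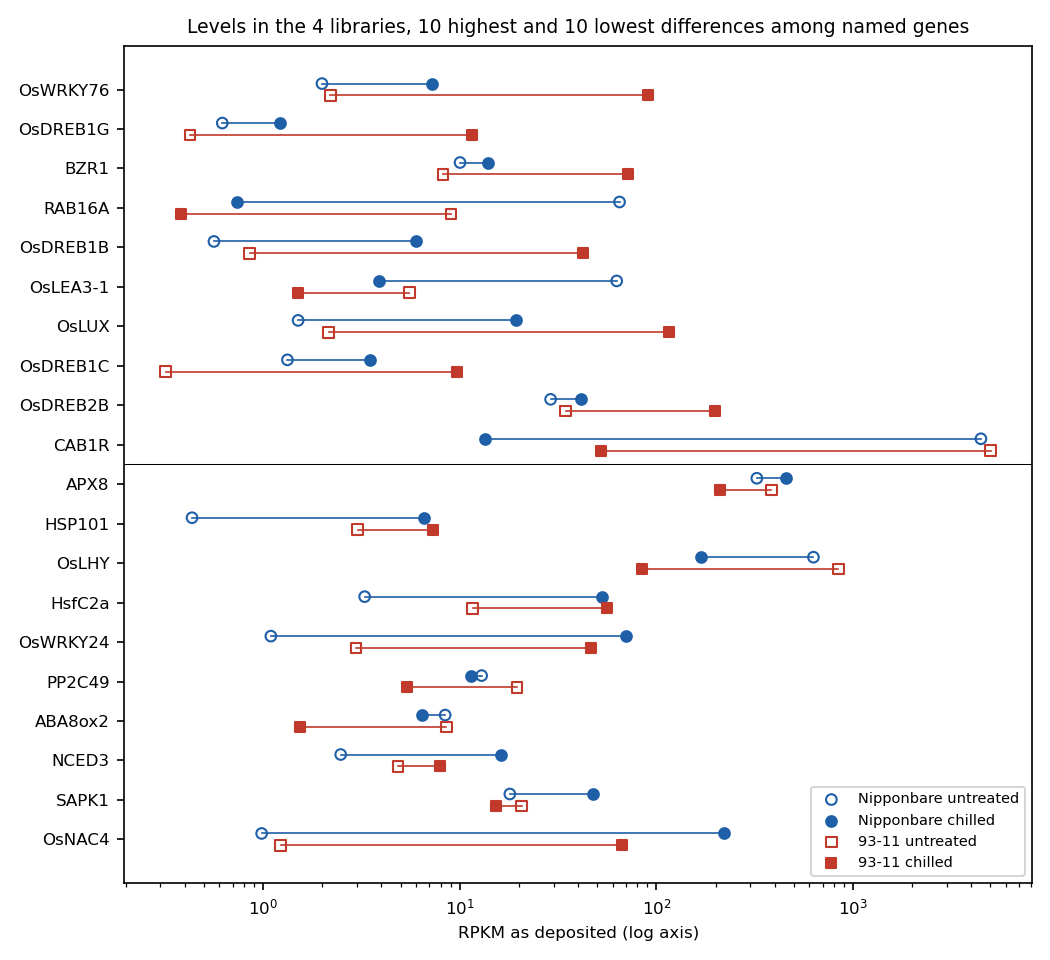
RPKM as deposited on a log axis in the 4 libraries for the named genes with the 10 highest (above the line) and 10 lowest (below it) response differences; circles are Nipponbare and squares 93-11, open untreated and filled chilled, and a line joins the 2 libraries of a cultivar. For OsWRKY76 the chilled square (91.0) stands far right of the chilled circle (7.23), and for SAPK1 the 93-11 line runs left while the Nipponbare line runs right.

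Genes of checked name on the lists of ABA metabolism, clade A phosphatases, SnRK2 kinases and bZIP factors were called lower in 93-11 more often than higher. SnRK2 genes were listed by family and not by their response to ABA. Of 5 measured metabolism genes 1 was higher and 2 lower, of 8 clade A phosphatases 0 and 2, of 10 SnRK2 kinases 0 and 2, and of 2 bZIP factors 0 and 1. The list medians were -0.14, -0.58, -0.36 and -0.85, all below the 0.09 of all genes. With loci of unchecked name added, an alternative chosen after seeing the data, 2 of 8 metabolism genes were higher and 2 lower. Their median was 0.45.

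NCED3 (LOC_Os03g44380), an enzyme gene of the committed step of ABA synthesis, had 2.48 RPKM untreated and 16.2 chilled in Nipponbare and 4.85 and 7.94 in 93-11. The untreated 93-11 library was above untreated Nipponbare and the chilled one below chilled Nipponbare, which gave a difference of -1.69 (-2.4 to -1.57 on reads) that was -1.11 with a pseudocount of 5. ABA8ox1 (LOC_Os02g47470) and ABA8ox2 (LOC_Os08g36860) encode 8'-hydroxylases, which break ABA down, and they differed in opposite directions. ABA8ox1 had 1.80 and 26.2 RPKM in Nipponbare and 7.70 and 184 in 93-11, a difference of 1.13 that was 0.72 on reads (0.28 to 1.16). ABA8ox2 had 8.43 and 6.44 in Nipponbare and 8.56 and 1.54 in 93-11, a difference of -1.57 that was -0.82 with a pseudocount of 5. The chilled 93-11 library was thus the highest of 4 for ABA8ox1 and the lowest for ABA8ox2. The third, ABA8ox3, had -0.14, and the zeaxanthin epoxidase gene ZEP 0.65.

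Among the phosphatases, which hold ABA signalling off, PP2C49 (LOC_Os05g38290) had 12.9 and 11.4 RPKM in Nipponbare and 19.6 and 5.41 in 93-11, and PP2C50 (LOC_Os05g46040) had 26 and 79.1 in Nipponbare and 46.9 and 61.7 in 93-11. Their differences were -1.52 and -1.18, and both genes stood higher in 93-11 than in Nipponbare when untreated and lower when chilled. PP2C06 (-0.89) and PP2C68 (-0.66) lay on the same side under the limit, and the highest value of the list was 0.47 for PP2C08.

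The SnRK2 kinase genes SAPK1 (LOC_Os03g27280) and SAPK5 (LOC_Os04g59450) moved in opposite directions in the 2 cultivars, under 4 of 5 scalings for SAPK1 and all 5 for SAPK5. SAPK1 had 18 RPKM untreated and 47.5 chilled in Nipponbare against 20.7 and 15.3 in 93-11, a difference of -1.76 (-2.08 to -1.58 on reads). SAPK5 had 43.4 and 53.7 in Nipponbare against 94 and 48 in 93-11, a difference of -1.25 (-1.44 to -1.11). For SAPK5 the untreated libraries already differed, with 93-11 the higher. The other 8 kinases ranged from -0.84 (SAPK6) to 0.19 (SAPK7). The bZIP factor gene bZIP23 (LOC_Os02g52780), a positive regulator of ABA responses in rice, had 30.7 and 69.1 RPKM in Nipponbare and 25.6 and 26.7 in 93-11, so that only the chilled Nipponbare library stood apart. Its difference was -1.09, and that of TRAB1, another ABA-responsive bZIP gene, was -0.62.

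Dehydrins and LEA proteins, which protect membranes and proteins in dehydrated cells, had a median of 1.07, with 4 of 7 measured genes higher and 1 lower. The median rested on which genes were kept: it was 0.22 where genes had to reach 1 RPKM in all 4 libraries, 0.41 without a filter and 0.51 with a pseudocount of 5. For each of the 4 higher genes the untreated pair differed more than the chilled pair, by most for RAB16A and OsLEA3-1. RAB16A (LOC_Os11g26790), a dehydrin gene of the RAB16 cluster, had 65 RPKM in untreated Nipponbare and 9.04 in untreated 93-11, and 0.737 and 0.382 chilled. OsLEA3-1 (LOC_Os05g46480), a group 3 LEA gene, had 62.9 in untreated Nipponbare and 5.54 in untreated 93-11, and 3.87 and 1.51 chilled. Both genes were lower in the chilled than in the untreated library of each cultivar, and the positive differences of 2.39 and 2.33 came with the higher untreated level of Nipponbare. RAB16C had 1.07, with 5.26 and 0.653 RPKM in Nipponbare and 2.71 and 1.06 in 93-11, and was 0.96 under another scaling and 0.51 with a pseudocount of 5. The RAB16 genes are close copies in 1 cluster, and their single values are uncertain.

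LIP9 (LOC_Os02g44870), a dehydrin gene known from rice as a DREB1 target, behaved differently from RAB16A. It stood at 99.7 RPKM untreated and 398 chilled in Nipponbare and at 56.6 and 531 in 93-11, a difference of 1.22 (1.12 to 1.34 on reads). OsLti6a (LOC_Os07g44180), a small hydrophobic membrane protein gene named for its low-temperature response, had 150.2 and 201 RPKM in Nipponbare and 170.3 and 94.4 in 93-11. The chilled library was thus the higher in Nipponbare and the lower in 93-11, a difference of -1.26. Its relative OsLti6b had positive responses in both cultivars and a difference of -0.78. In trehalose, raffinose and proline synthesis, which make protective solutes, 0 of 5 measured genes were called, from -0.82 for the proline synthesis gene P5CS1 to 0.44 for the raffinose synthase gene RafS.

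Jasmonate TIFY (JAZ) genes, repressors that are themselves induced by the hormone, had 2 of 11 measured genes higher and 0 lower, with a median of 0.27. TIFY11B (LOC_Os03g08330) had 9.45 and 87.8 RPKM in Nipponbare and 7.45 and 168 in 93-11, a difference of 1.23. TIFY11C (LOC_Os03g08320) had 10.4 and 122 in Nipponbare and 3.07 and 89.1 in 93-11, a difference of 1.04 that was 0.89 under another scaling and 0.50 with a pseudocount of 5. In TIFY11B the chilled 93-11 library was the highest, whereas in TIFY11C it was below chilled Nipponbare and its untreated 93-11 value was the lowest of the 4. These genes sit side by side with TIFY11A and are close copies, so reads may be shared. The lowest of the list was TIFY6B (-0.53). Of 7 measured genes of jasmonate synthesis and perception 0 were called, from -0.51 for AOC, allene oxide cyclase, to 0.51 for the receptor gene COI1b.

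Other hormone lists held few calls. BZR1 (LOC_Os07g39220), the transcription factor at the end of brassinosteroid signalling, was called while the 4 other measured brassinosteroid genes were not. It had 10.04 RPKM untreated and 13.9 chilled in Nipponbare and 8.22 and 71.8 in 93-11, a difference of 2.55 (2.3 to 3.0 on reads), so 3 libraries were close and chilled 93-11 stood apart. The others ran from -0.29 (D11, a synthesis gene) to 0.15 (BRI1, the receptor). Of 6 measured type-A response regulators, which cytokinin induces, 1 was higher. RR1 (LOC_Os04g36070) had 10.3 and 1.89 RPKM in Nipponbare and 5.44 and 2.34 in 93-11, a difference of 1.02 that was as low as 0.88 under another scaling and 0.64 with a pseudocount of 5, and RR2 was the lowest at -0.44. No gibberellin gene of 4 (from -0.74 for GA20ox2 to 0.3 for SLR1) and no ethylene gene of 7 (from -0.48 for the receptor gene ERS2 to 0.997 for the receptor gene ETR2) was called.

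The clock was split. Of 8 measured clock genes 2 were higher, 1 was lower and 5 were not called, with a median of 0.27. OsLHY (LOC_Os08g06110), a morning-phased MYB factor, had 629 RPKM untreated and 168 chilled in Nipponbare and 843 and 84.8 in 93-11, a difference of -1.4 (-1.47 to -1.34 on reads). OsPRR1 (LOC_Os02g40510), the evening-phased pseudo-response regulator, had 17.5 and 38 in Nipponbare and 14.4 and 79.7 in 93-11, a difference of 1.31. OsLUX (LOC_Os01g74020), of the evening complex, had 1.51 and 19.3 in Nipponbare and 2.15 and 116 in 93-11, a difference of 2.2 (1.37 to 2.8 on reads). In all 3 genes both cultivars responded in the same direction and 93-11 went further. The remaining 5 ran from -0.2 (OsGI) to 0.73 (OsPRR73). Time of day was not tested, since the labels give no hour of harvest.

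Photosynthesis lists lay below the background on the whole, and CAB1R did not. Medians were -0.45 for 4 light-harvesting genes, -0.81 for 4 Calvin cycle genes, -0.21 for 4 photosystem and electron transport genes and -0.25 for 9 chlorophyll synthesis genes. Abundant genes had a lower median than the rest, -0.08 at 100 RPKM and over. CAB1R (LOC_Os09g17740), a gene of a chlorophyll a/b-binding protein, had 4474 RPKM untreated and 13.4 chilled in Nipponbare and 5019 and 52.1 in 93-11. Both cultivars lost most of the transcript, 93-11 less, which gave 1.71 (1.59 to 1.98 on reads). CAB2R had 90.7 RPKM in chilled Nipponbare and 58.7 in chilled 93-11, with a difference of -0.66. Lhcb2 (-0.24) and Lhcb3 (-0.71) were on its side and not on that of CAB1R.

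In the Calvin cycle 2 of 4 measured genes were lower and 0 higher. RBCS2 (LOC_Os12g17600), for the small subunit of Rubisco, stood at 11962 and 5058 RPKM in Nipponbare and at 17330.1 and 3439 in 93-11, a difference of -1.09 with a counting interval of -1.11 to -1.07. RPE (LOC_Os03g07300), for ribulose-phosphate epimerase, stood at 423 and 328 in Nipponbare and at 602 and 222 in 93-11, a difference of -1.07. In both, 93-11 was the higher cultivar untreated and the lower one chilled. The same order held for GS2 (LOC_Os04g56400), the plastid glutamine synthetase that takes up photorespiratory ammonium, with 1341 and 706 RPKM in Nipponbare, 1476 and 368 in 93-11 and a difference of -1.08. The Rubisco activase gene RCA had -0.56 and the plastid fructose-bisphosphatase gene cpFBPase 0.02. Of 5 measured nitrogen assimilation genes GS2 was the 1 called, and the cytosolic glutamine synthetase gene GS1;1 had the highest value, 0.96. RBCS2 belongs to a family of close copies, so its single value is uncertain.

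In chlorophyll synthesis, CHLH (LOC_Os03g20700), the large subunit of magnesium chelatase, was the 1 called gene of 9, with 373 RPKM untreated and 52.3 chilled in Nipponbare, 477 and 29.6 in 93-11 and a difference of -1.16 (-1.26 to -1.1 on reads). The highest of the list was PORA, a protochlorophyllide reductase gene, at 0.97, with 8.31 RPKM in chilled Nipponbare and 20.3 in chilled 93-11 from over 1000 in both untreated libraries. Among photosystem genes PsaH was lowest (-0.83) and the plastocyanin gene PetE highest (0.11). None of 4 chlorophyll breakdown genes was called (from -0.52 for SGR to 0.26 for NYC1), and none of 5 phytochrome and GLK genes (from -0.77 for GLK2 to 0.23 for PHYC). GLO3 (LOC_Os04g53210), a glycolate oxidase gene, was called among 3 photorespiration genes. It had 17.8 and 6.64 RPKM in Nipponbare and 8.35 and 10.5 in 93-11, opposite directions that gave 1.6, whereas the far more abundant GLO1 had -0.46.

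Antioxidant enzymes were split by gene. Of 14 measured ascorbate peroxidases, catalases and superoxide dismutases 2 were higher and 2 lower, with a median of 0.12 that took either sign over the scalings. APX8 (LOC_Os02g34810), a chloroplast ascorbate peroxidase, had 324 RPKM untreated and 455 chilled in Nipponbare and 385 and 210.3 in 93-11, a difference of -1.35 (-1.42 to -1.29 on reads). SODA (LOC_Os05g25850), the manganese superoxide dismutase of mitochondria, had 40.7 and 64 in Nipponbare and 32.5 and 24.5 in 93-11, a difference of -1.04 (-0.94 with a pseudocount of 5). Both had a positive response in Nipponbare and a negative one in 93-11, under all 5 scalings for APX8 and 4 of 5 for SODA. SODCC2 (LOC_Os07g46990), a cytosolic copper-zinc dismutase, showed the reverse, with 64.4 and 30.2 RPKM in Nipponbare, 42 and 48.7 in 93-11 and a difference of 1.28. SODCC1, of the same type, was just under the limit at 0.98. APX5 had 1.24, but with 5 reads in each 93-11 library its interval on reads ran from 0.23 to 3.93, and it was 0.95 under another scaling and 0.53 with a pseudocount of 5. The catalase genes CATA (0.22) and CATB (0.86) were not called, nor was AOX1a, the alternative oxidase of mitochondria (0.68), at 372 RPKM in chilled Nipponbare and 593 in chilled 93-11.

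Heat shock factors and proteins had 2 of 9 measured genes higher and 2 lower, with a median of -0.20. HsfC2a (LOC_Os02g13800) had 3.29 and 52.7 RPKM in Nipponbare and 11.6 and 55.8 in 93-11, a difference of -1.48 (-0.93 with a pseudocount of 5). HSP101 (LOC_Os05g44340), a chaperone that takes protein aggregates apart, had 0.435 and 6.57 in Nipponbare and 3.03 and 7.28 in 93-11, a difference of -1.36 that was -2.62 on reads and -0.48 with a pseudocount of 5. In both genes the chilled libraries were alike and the untreated ones differed, with Nipponbare the lower. HsfC1a (LOC_Os01g43590) had 5.47 and 2.24 in Nipponbare and 7.46 and 8.68 in 93-11, a difference of 1.19 (0.67 with a pseudocount of 5). HsfA2d had 45.3 and 2.04 RPKM in Nipponbare, 51.6 and 6.74 in 93-11 and a difference of 1.16 (0.57 with a pseudocount of 5); its table entry carries another gene's name as well, so its identity is uncertain.

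LTG1 (LOC_Os02g40860) is a casein kinase I gene found through growth at low temperature in rice. It was called among 3 measured genes on a list of loci that differ between japonica and indica. It had 9.62 RPKM untreated and 6.29 chilled in Nipponbare and 43.8 and 65.4 in 93-11. The level of 93-11 was far above that of Nipponbare in both conditions, and the responses pointed in opposite directions under 4 of 5 scalings, with a difference of 1.11 (0.92 to 1.46 on reads) that was 0.90 with a pseudocount of 5. The others were COLD1 and the Waxy gene GBSSI (0.38), which is also on the starch synthesis list.

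Of 9 measured cellulose synthases, CESA2 (LOC_Os03g59340) was higher, at 8.53 and 8.94 RPKM in Nipponbare and 6.34 and 15 in 93-11, a difference of 1.06 that was as low as 0.93 under another scaling and 0.77 with a pseudocount of 5; CESA3 was lowest (-0.3). RAmy3D, an alpha-amylase gene, had 0 reads in untreated Nipponbare and 3 in untreated 93-11, and 2.24 and 13.5 RPKM chilled. Its value of 2.07 depends on the added 1, with 0.18 on reads, and its interval on reads held 0. LSI1 (LOC_Os02g51110), a silicon channel gene of roots, had 5.57 and 1.08 RPKM in Nipponbare and 6.09 and 5.07 in 93-11, a difference of 1.44 (0.66 with a pseudocount of 5), while the root sodium transporter gene HKT2;1 had -0.33. The part of root tissue in these libraries was not tested.

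Among members of checked name, calls were absent from the remaining lists. They covered 6 sucrose genes (from -0.99 for the transporter gene SUT1 to 0.64 for the synthase gene SUS4), 4 starch synthesis genes (from -0.67 for AGPS2 to 0.38 for GBSSI), 8 plasma membrane aquaporins (from -0.79 for PIP1;2 to 0.85 for PIP2;6) and 2 flavonoid genes (CHS1 -0.83, CHI 0.05). With loci of unchecked name added, some lists without a call here or above held 1 or more. Higher were 2 of 10 phenylpropanoid and flavonoid genes and 2 of 9 trehalose, raffinose and proline genes. Lower were 1 of 11 starch, 1 of 7 gibberellin and 1 of 9 jasmonate synthesis and perception genes. So were 1 of 13 signalling genes and 1 of 17 photosystem and electron transport genes. The C2H2 zinc finger list had 0 members of checked name, and 2 of its 6 loci were higher. The desaturase gene SSI2 had -0.21 and the flowering regulator gene DTH8 -0.14. With 0 reads in chilled Nipponbare, the sign of the DTH8 value depends on the added 1: it was 1.44 with a pseudocount of 0.1 and 3.37 on reads, with an interval of -0.78 to 7.51 that held 0. The reference genes ACT1 and GAPC had 0.09 and -0.3, though both chilled libraries held less ACT1, with 22.1 against 68.3 RPKM in Nipponbare and 23.1 against 67 in 93-11.

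**Figure D5:**
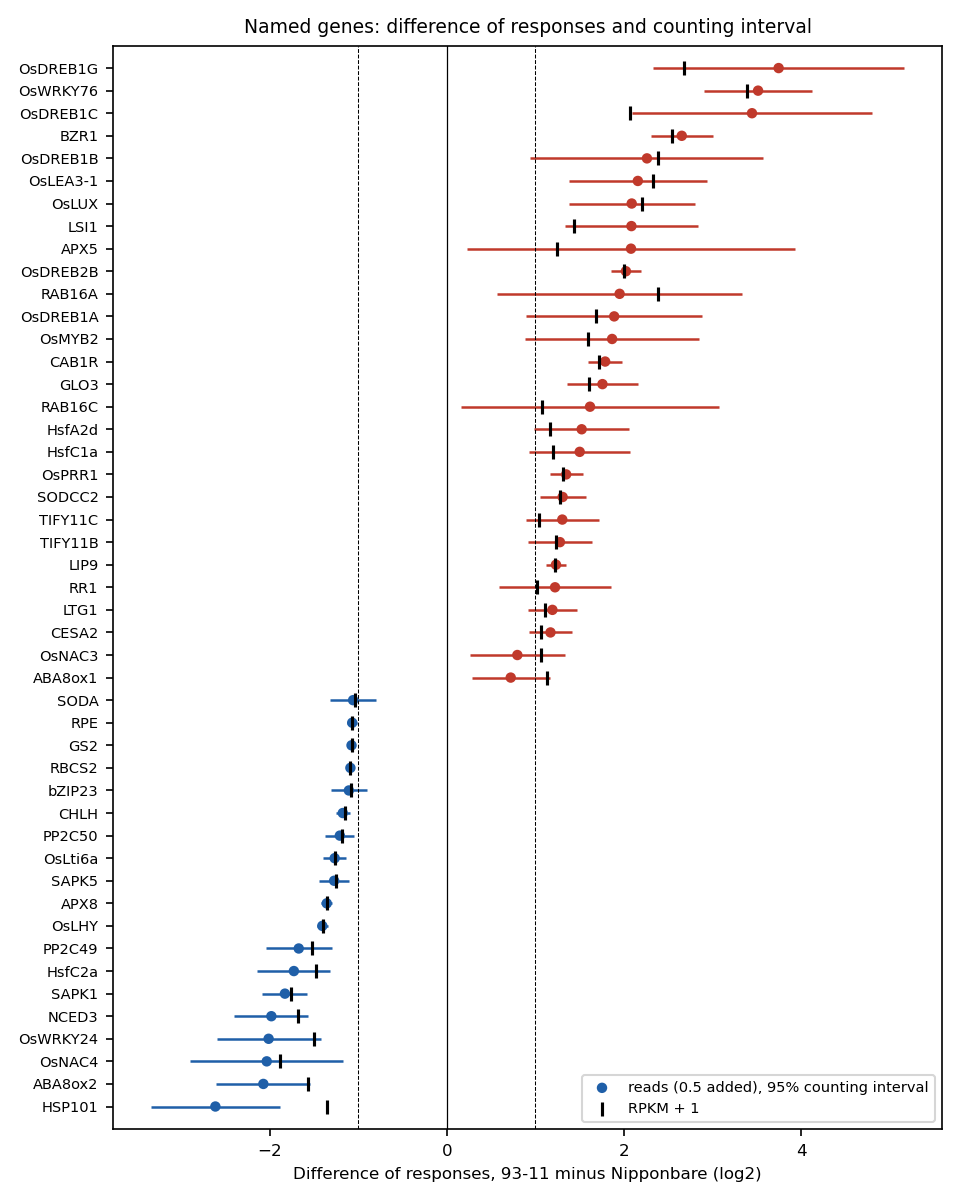
Response difference of the 47 named genes at 1 or more in size whose counting interval lay on the same side of 0, on recovered reads with 0.5 added (points, with 95% Wald counting intervals as lines) and on RPKM + 1 (black ticks), in log2 units. Intervals are narrow for abundant genes such as RBCS2 and wide for low ones such as OsDREB1G and APX5, and for OsDREB1G and HSP101 the RPKM + 1 value lies closer to 0 than the value on reads.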

How the data were processed

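RNA sequencing values in RPKM (reads scaled to gene length and library total) were used as the authors deposited them, 1 value for each of 55985 genes in each of 4 libraries. Per the submitters' processing notes, the tools were TopHat2 2.0.9, Bowtie2 2.0.6 and HTSeq 0.5.4p3, without their roles. Build, annotation, the genome used for 93-11 and the use of strand are not given in the sources used, which leaves overlapping and antisense genes uncertain. Fragments were primed with random hexamers after oligo(dT) selection, per the labels' protocols.

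The response difference was computed on log2(RPKM + 1) for genes that reached 1 RPKM in 2 or more libraries. The 1 library per group allows no test, so calls (1 log2 unit) are by size and compare these libraries only. For the 36941 genes above 0, whole gene lengths and whole library totals turned RPKM back into whole reads. Reads of a gene are known up to a whole factor common to its libraries, and the smallest solution was taken. They sum to 97.7 to 98.1% of the totals. A factor set too small would widen a gene's counting interval, whereas variation other than counting is left out of it. Intervals are 95% Wald intervals with 0.5 reads added, cover counting error only (PCR copies are not independent molecules) and were tested on simulated data.

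Alternatives were other pseudocounts (0.1 and 5), filters, size limits, recovered reads and 4 other scalings: TMM (trimming 0.3 of ratios and 0.05 of intensities), upper quartile, median of ratios and 4 reference loci. The question and the 42 gene lists were chosen with earlier results of these data known. A name was used only where a table of RefSeq genes (assembly ASM3414082v1), which holds 0 of the files' identifiers, puts that symbol, or a synonym, at the matching chromosome and place in the gene order; 15 synonyms were added after the table was seen. Of 387 loci, 135 were not in the table, 7 lay on another chromosome and 2 were out of order. The pairing of name and identifier comes from general knowledge, which that table did not contradict. Named genes are list members of checked name at 1 or more in size with an interval on the same side of 0, the highest and lowest of each list, and the 2 highest and 2 lowest of all genes; further genes were named after their values were seen. Promoter motifs planned for the named regulators were not run, as no sequence was used here. Python 3.11.15, numpy 2.4.6, pandas 2.3.3, scipy 1.17.1 and matplotlib 3.10.9 were used.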

Additional observations from a re-analysis of the deposited data

Results flagged for a closer look

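In 8 list members of checked name whose response difference was at least 1 in size, chilled over untreated pointed in opposite directions in Nipponbare and 93-11. The same held for LOC_Os01g64120 (3.17 and -2.34), named by identifier. A large difference itself favours opposite signs, and their share over all genes was not counted. Responses passed 1 in opposite directions in 18 of the 1833 genes higher in 93-11 and 12 of the 914 lower. None of these differences was tested, since each group holds 1 library. Lower in 93-11, with a positive response in Nipponbare and a negative one in 93-11, were the kinase genes SAPK1 (-1.76) and SAPK5 (-1.25), the ascorbate peroxidase gene APX8 (-1.35), the membrane protein gene OsLti6a (-1.26) and the dismutase gene SODA (-1.04). The reverse held for the dismutase gene SODCC2 (1.28), the glycolate oxidase gene GLO3 (1.6) and LTG1 (1.11). The opposite signs were seen under all 5 scalings for APX8, OsLti6a, SAPK5, SODCC2 and GLO3, and under 4 of 5 for SAPK1, SODA and LTG1. HsfC1a and APX5 also had opposite signs on the values as deposited. Their read-ratio intervals in 93-11 held 0 (-0.08 to 0.52 and -1.76 to 2.48), so they are not among the 8.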

How the results depend on the processing

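No paired analysis was possible because each group has 1 library, and for the same reason no library could be left out. Counts of genes at 1 or more and at -1 or less, 1833 and 914 as reported, depended on the size limit and on how low values were treated. They were 2916 and 1439 with a pseudocount of 0.1, 739 and 447 with a pseudocount of 5, and 3157 and 1539 on recovered reads. They were 1023 and 586 with 5 RPKM required in 2 libraries, and 1044 and 542 with 1 RPKM required in all 4, where fewer genes were counted. With a size limit of 1.5 the counts were 665 and 339, with 2 they were 261 and 140, and with the whole counting interval beyond 1 they were 856 and 406. With at least 10 reads in every library, an alternative chosen after seeing the data, 1233 and 607 were left. Without a filter (2481 and 1315) and under the 4 other scalings the counts stayed within 1.5 times of those reported, and the median of all genes lay between -0.04 and 0.11 over all settings run. For named genes, 852 of 903 values under the alternatives moved by less than their own counting error. Another 51 moved further, and 0 changed sign as called values. Of 48 called genes, 42 stayed at 1 or more in size under all 4 other scalings, and 31 under all settings in which they had a value. Genes that failed a stricter filter had no value there. OsDREB1C and OsDREB1G had values in 8 of 10 settings, and OsDREB1A and OsDREB1B in 9. Of 436 list medians 31 moved, and the medians of the antioxidant, brassinosteroid, signalling kinase, gibberellin, NAC and phytochrome lists took either sign over the scalings. Depth limits low genes most: for 308 of 1833 and 198 of 914 called genes the counting interval held 0.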

Other observations

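Genes lowered by chilling in both cultivars were a larger group than those raised in both, 3692 against 2565 at 1 log2 unit or more in each cultivar on the values as deposited. The order turned with TMM scaling, with 2856 lowered and 3147 raised. Among the 2565 genes raised in both, 296 (11.5%) had a response higher by at least 1 in 93-11 and 141 (5.50%) one lower by at least 1. Among the 3692 lowered in both, these were 206 (5.58%) and 120 (3.25%). The background was 9.42% and 4.70% of all genes. The median difference was 0.11 in genes raised in both and 0.07 in genes lowered in both.

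How many libraries reached 1 RPKM went with the share of calls. That number and the difference come from the same 4 values, so a link between them was partly built in. Of 14258 genes that reached it in all 4 libraries 7.32% were higher and 3.80% lower in 93-11, of 1721 in 3 libraries 18.5% and 6.97%, and of 3487 in 2 libraries 13.5% and 7.23%.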
